A study of Mus musculus with 8 samples.

Results

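The 7 genes described here handle cellular iron in mouse myotubes: Slc40a1, Tfrc, Fth1, Slc11a2, Hmox1, Ireb2 and Aco1. They were found by gene symbol on the arrays, as every probe set (a group of short probes for 1 transcript) annotated to 1 of them and to no other gene. The genes were chosen by their role in iron handling after the signals of these arrays were known, and Slc40a1 was selected on its difference between the wildtype and truncated-Egr3 signals. The search gave 22 probe set readings of 45265 on the arrays, 17 on array type A and 5 on type B, for 7 of 18193 named genes. The 22 readings come from 19 probe sets, because 3 control probe sets for Tfrc are on both types. Total RNA from 4 myotube preparations, called primary in the title of the series, was hybridised once to each array type, so 8 arrays hold 4 RNAs. The labels name 1 RNA as the wildtype and 1 as truncated Egr-3, both with a treatment of type grow; Egr3 is an activity-induced zinc-finger transcription factor, and the series asks which genes it regulates. RNA275 carries only an acclimatization treatment in its label and RNA276 carries none, so neither belongs to a group, and their values are given as single readings. The labels do not give the strain, the animals' age, the age of the cultures, or how and in which cells the truncated Egr3 was made, nor whether any 2 RNAs came from separate cultures.

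Cells take up iron mainly as transferrin bound to the transferrin receptor, and the metal transporter encoded by Slc11a2 moves the iron out of endosomes into the cytosol. Iron that is not used is stored in ferritin or leaves through ferroportin, the exporter encoded by Slc40a1. The iron regulatory proteins encoded by Aco1 and Ireb2 bind hairpins in messenger RNAs when iron is scarce, which stabilises Tfrc mRNA and blocks translation of ferritin and ferroportin mRNA. Arrays read mRNA level and give no view of that translational control. Muscle holds much iron in myoglobin and in the respiratory chain.

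The promoter table from RefSeq (GRCm38.p6), with 250 bases before and 50 after each annotated start, held 6 windows for 4 of the 7 genes: Aco1, Ireb2, and 2 each for Tfrc and Fth1. Slc40a1, Slc11a2 and Hmox1 had no entry. Each window was searched on both strands for ACGTG (the core bound by hypoxia-inducible factors), TGACNNNGC (the antioxidant-response core bound by NRF2) and GCGNGGGCG (the motif of the EGR family). The sequences with a match are shown because Egr3 is the factor of the study and because Tfrc is described in the literature as a gene induced by hypoxia. The matched letters are in capitals, the strand is plus for both genes, and the locations are chr16:32608646-32608905 for Tfrc and chr19:9982550-9982598 for Fth1.
Tfrc: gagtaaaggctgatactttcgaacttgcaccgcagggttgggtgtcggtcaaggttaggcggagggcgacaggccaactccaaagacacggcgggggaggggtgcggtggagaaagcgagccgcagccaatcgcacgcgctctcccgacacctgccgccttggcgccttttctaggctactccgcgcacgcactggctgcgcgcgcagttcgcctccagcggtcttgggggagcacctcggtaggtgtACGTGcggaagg
Fth1: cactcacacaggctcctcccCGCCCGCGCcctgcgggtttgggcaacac
The Tfrc match is ACGTG at the more upstream of its 2 annotated starts and lies in both Tfrc windows; 19.6% of all 32851 windows in the table hold that core. The Fth1 match is the EGR motif on the minus strand, its first letter 76 bases before the more downstream start, and 5.55% of windows hold that motif. TGACNNNGC, which 12.4% of windows hold, was in none of the 6 windows, and the windows of Aco1 and Ireb2 held none of the 3 motifs. The matches do not overlap one another. A match describes letters in a window and shows no binding.

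The arrays had been brought to 1 scale before deposit, and the values are intensities with no unit of their own. A signal floor was set at 67.6 on type A and 112.6 on type B, and a reading below it was counted at the floor; between 47.0% and 50.6% of type A and between 38.6% and 41.3% of type B probe sets lay above it. Each label has a single RNA, so there is neither a replicate error nor a p-value. The only error that could be measured is technical: 100 bright probe sets are shared by types A and B, and from them a single log2 difference between wildtype and truncated Egr3 had an SD of 0.174, so 2 technical SD is 0.348. The same difference was on average 0.141 higher on type A than on type B, an offset that the SD leaves out. Among pairs of RNAs this offset was largest for wildtype minus RNA276, at 0.269. Steps given in technical SDs do not allow for it. The shared probe sets have a median signal of 344, and dim probe sets may vary more. Differences between cultures are not covered by the technical SD. The cultures carried myotube transcripts: all 9 myotube markers were above the floor, with Myog at 1877 in wildtype and 1470 in truncated Egr3.

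Ferroportin mRNA differed most between the labelled RNAs. The brighter Slc40a1 probe set (1417061_at) read 176 in the wildtype RNA, 572 in the truncated-Egr3 RNA, 90.0 in RNA275 and 106 in RNA276. The other (1448566_at) read 124 in wildtype, 404 in truncated Egr3, 56.8 in RNA275, which is below the floor, and 106 in RNA276. By both probe sets the truncated-Egr3 RNA stood far above the other 3, wildtype came next and RNA275 was lowest. Wildtype minus truncated Egr3 came to -1.70 in log2 by each, 3.26-fold higher in truncated Egr3 by the brighter one. That gap is 9.79 technical SDs. The step from wildtype to RNA276 was 0.73 in log2 by the brighter probe set (3.66 technical SDs) but 0.23 by the other (1.16), and the order of RNA276 and RNA275 rests on 0.23 (1.53 technical SDs) and on at least 0.64 (4.29). In bulk RNA, fewer cells of a type and less RNA per cell cannot be told apart.

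Slc40a1 had the 4th lowest log2 difference among 10307 genes measured in the wildtype or truncated-Egr3 RNA. By probe sets, 2 of the 14 measured ones outside the array controls were at least 2-fold higher in truncated Egr3, both of Slc40a1, against 0.767% of all named probe sets; none was in the other direction, against 0.963%. Slc40a1 was 1 of 55 genes at least 2-fold higher in truncated Egr3, which is 0.534% of those genes, and 1 of 23 genes (0.206% of the 11154 above the floor in any RNA) at least 2-fold higher there than in each of the other 3 RNAs. This difference was among the values for which these genes were chosen, so these counts only describe it. The order of the 4 RNAs was the same by both probe sets with quantile normalization and with equal medians. Ferroportin is abundant in macrophages that recycle red cells, so their markers were read beside it. By 1 probe set per gene (the brightest, on type A where the gene is there), no signal above the floor in either labelled RNA was seen for 14 of 16 macrophage genes, among them Adgre1, Cd68, Lyz2 and Cd163, and the summed signal of these probe sets was 569 in wildtype and 526 in truncated Egr3. The 2 with such a signal were Csf1r (99.7 against 94.4) and Laptm5 (93.1 against 104). Of the 14, Fcgr1 had a second probe set, on type B, above its floor in both (162 against 173). All 5 erythroid markers on the arrays were below the floor, with summed signals of 112 and 86.8. Among fibroblast markers Dcn, a matrix proteoglycan, was 2.02-fold higher in truncated Egr3 (157 against 317). It was the 1 of 4 measured to reach 2-fold, where 0.534% of all measured genes did in that direction. The log2 differences of Col1a1 and Col1a2 were 0.33 and 0.19, higher in wildtype. Col3a1 was at -0.08, or at -0.57 by its dimmer probe set. The sum of all 7 was 8057 against 7492. The part of Dcn in the Slc40a1 difference was not tested.

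**Figure D1:**
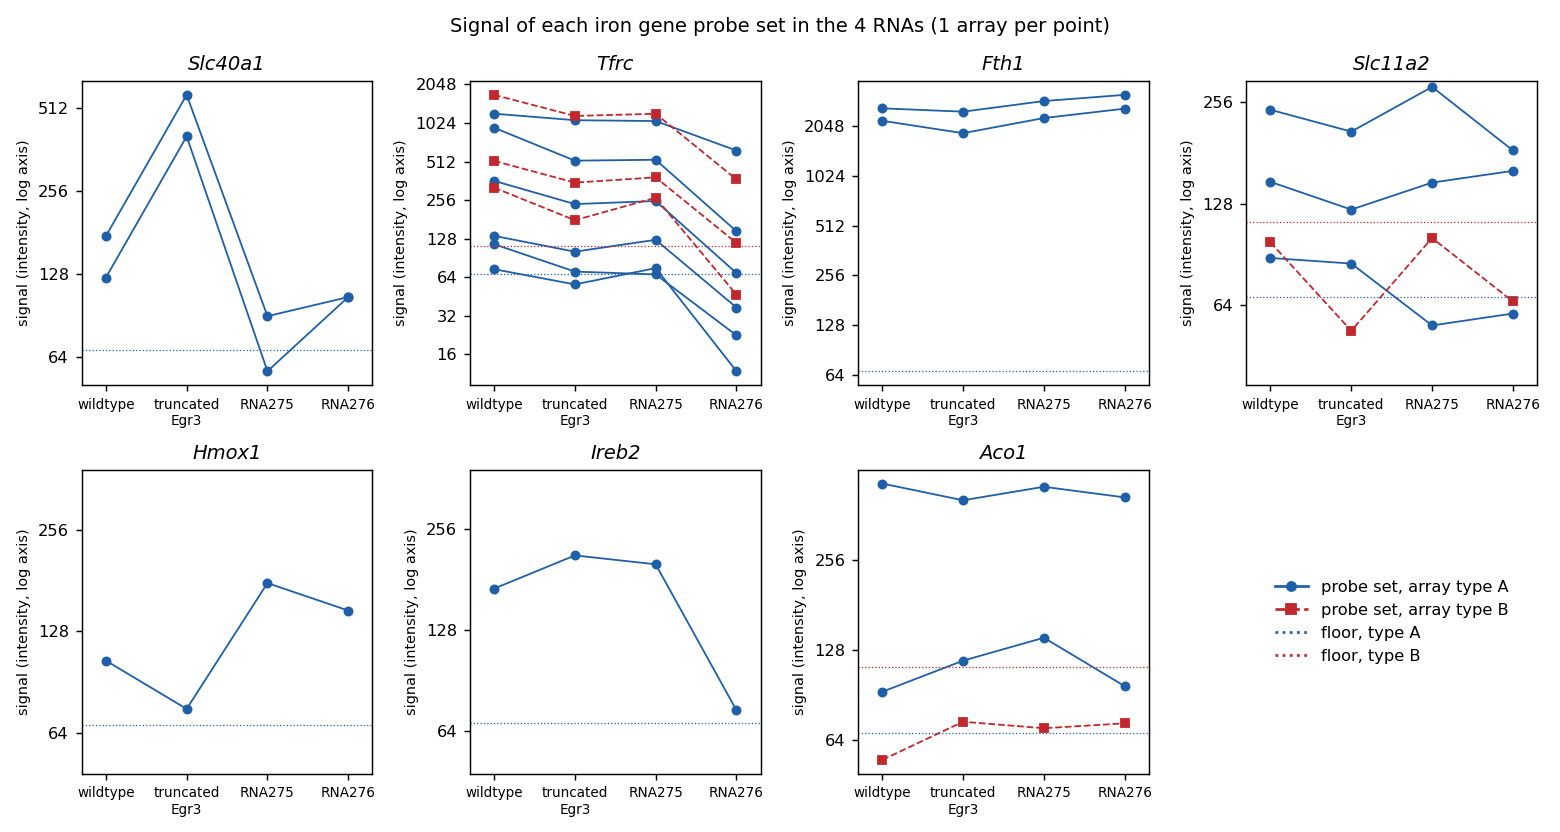
Signal of each probe set of the 7 genes (vertical axes, log scale, each gene with its own range) in the 4 RNAs; each point is 1 array, a line joins the readings of 1 probe set, and dotted lines are the floors of 67.6 and 112.6. Both Slc40a1 probe sets peak in truncated Egr3, and the Tfrc points of RNA276 are low, 4 of the 9 below the floor.

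The genes whose signals over the 4 RNAs ran closest to those of Slc40a1 were found by distance: log2 signals were centred on each gene's mean, and 8413 genes above the floor in all 4 RNAs were ranked. Ero1a, an oxidase that forms disulfide bonds in the endoplasmic reticulum, was nearest at a distance of 0.42. It read 713 in wildtype, 1617 in truncated Egr3, 265 in RNA275 and 313 in RNA276. Next were Ankrd37, an ankyrin-repeat protein (distance 0.57), and Ndrg1, a stress-responsive cytoplasmic protein (0.72). Fibin, a secreted protein, lay at 0.82 and Bnip3, a mitophagy receptor of the mitochondrial outer membrane, at 0.83. All 5 were highest in truncated Egr3 and lowest in RNA275, like Slc40a1, which largely follows from their selection by distance. They were 2.27-fold, 2.47-fold, 2.22-fold, 2.07-fold and 1.57-fold higher in truncated Egr3 than in wildtype, in that order, less than Slc40a1. The likeness rests on 4 RNAs.

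The transferrin receptor gene Tfrc, which brings iron into the cell, was read 9 times. By its brightest named probe set (1452661_at) it read 1211 in wildtype, 1077 in truncated Egr3, 1061 in RNA275 and 624 in RNA276. By the next (1422966_a_at) the readings were 941 in wildtype, 520 in truncated Egr3, 529 in RNA275 and 146 in RNA276. The labelled RNAs lie close together by the first and well apart by the second, and RNA276 is lowest by both. The log2 differences of wildtype minus truncated Egr3 were 0.17 and 0.86, so these probe sets disagree on the size though not on the sign.

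All 9 readings of Tfrc were higher in wildtype than in truncated Egr3. Their log2 differences ran from a lower bound of 0.13 to 0.86 with a median of 0.57, 7 of them beyond 2 technical SD and none at 2-fold. The control probe sets give the same RNAs on both array types. The one for the 3' part read 362 in wildtype and 238 in truncated Egr3 on type A, a log2 difference of 0.60, and 1699 against 1162 on type B, a difference of 0.55. That for the 5' part gave 0.71 and 0.57. The middle one gave 0.85 on type B and, with truncated Egr3 at the floor, at least 0.13 on type A. Truncated Egr3 read between 55.3% and 88.9% of wildtype over the 9 readings. The order of these RNAs held in all 9 with quantile normalization, equal medians and loess. By its brightest probe set, whose difference of 0.17 is below the median of the 9, Tfrc lay at the 72.4 percentile of all measured genes. That rank does not speak for the other readings.

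RNA276 was below every other RNA in 7 of the 9 Tfrc readings; in the other 2, the 5' and middle controls on type A, another RNA was below the floor too. In the 5 readings above the floor in all 4 RNAs, RNA276 stood at 15.5% to 51.5% of wildtype, and the lowest of the other RNAs was between 1.70-fold and 3.56-fold above it. It stayed lowest in those 5 with quantile normalization and with equal medians. In the other 4 RNA276 was below the floor and its level is only bounded. The 3' control read 68.9 in RNA276 against 252 in RNA275 on type A, and 371 against 1209 on type B. The gap between RNA276 and the next RNA there was 10.0 and 9.23 technical SDs. Of the 7 readings with RNA275 and truncated Egr3 both above the floor, 5 put them within 1 technical SD, while the middle control on type B put RNA275 higher by 3.63 technical SDs. Between the ends of the transcript, the ratio of the 3' to the 5' Tfrc control ran from 3.06 to 3.74 over the 8 arrays, with RNA276 at 3.06 and 3.14. The ratio of the 3' to the middle control ran from 3.34 to 7.96 and was highest in RNA276 on each type, at 5.84 and 7.96. Both middle readings of RNA276, and its 5' reading on type A, are below the floor, so these ratios are uncertain, and the part of transcript ends in the RNA276 values was not tested. For beta-actin the 3' to 5' ratio ran from 1.05 to 1.19, and for Gapdh from 0.72 to 0.832.

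**Figure D2:**
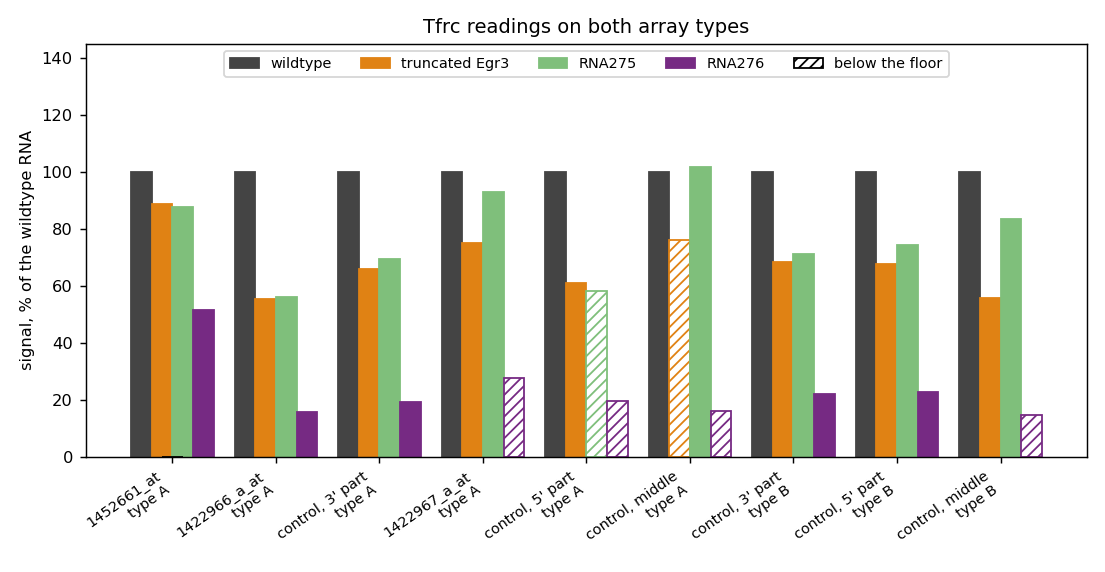
The 9 Tfrc readings (horizontal axis, probe set and array type) as a percentage of the wildtype signal of the same reading; bars are the 4 RNAs, 1 array each, with no error bar because each is a single array, and hatched bars are below the floor. In the 5 readings above the floor in all 4 RNAs, RNA276 lies between 15.5% and 51.5% and truncated Egr3 between 55.3% and 88.9%.

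Slc11a2 encodes the divalent metal transporter that carries iron from endosomes to the cytosol. Its brightest probe set (1426441_at) read 243 in wildtype, 209 in truncated Egr3, 284 in RNA275 and 184 in RNA276. Another (1452078_a_at) read 148, 123, 148 and 160 in that order of RNAs. RNA276 is lowest by the first and highest by the second, and no step between neighbours by these probe sets exceeds 1.66 technical SDs, so Slc11a2 shows no settled order. The third probe set on type A read 88.2 in wildtype and 84.9 in truncated Egr3 and was below the floor in the unassigned RNAs, and the type B probe set was below the floor in all 4. The log2 differences of wildtype minus truncated Egr3 were 0.22, 0.27 and 0.06, within 2 technical SD. The smallest of these turned to -0.01 with equal medians.

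Fth1, the heavy chain of ferritin that oxidises iron for storage, had bright readings in every RNA. The probe set 1427021_s_at read 2613 in wildtype, 2494 in truncated Egr3, 2891 in RNA275 and 3151 in RNA276. The probe set 1448771_a_at read 2197, 1849, 2282 and 2601 in that order of RNAs. RNA276 is highest and truncated Egr3 lowest by both, but over a span of 1.26-fold and 1.41-fold. No step between neighbouring RNAs exceeded 1.43 technical SDs, and the order by the first probe set was different with quantile normalization. The log2 differences of wildtype minus truncated Egr3 were 0.07 and 0.25. The first turned to -0.01 with quantile normalization and to -0.02 with loess. The s in its name marks probes shared with other transcripts, and ferritin heavy chain has processed pseudogenes, so this value is uncertain.

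Hmox1 encodes haem oxygenase 1, the inducible enzyme that opens the haem ring and releases its iron. Its 1 probe set (1448239_at) read 105 in wildtype, 75.2 in truncated Egr3, 178 in RNA275 and 147 in RNA276. Truncated Egr3 was lowest and RNA275 highest, 2.36-fold apart, and both unassigned RNAs were above both labelled ones. Wildtype was above truncated Egr3 by 0.48 in log2, or 1.39-fold, 2.74 technical SDs and at the 93.1 percentile of all measured genes. The truncated-Egr3 reading lies just above the floor of 67.6, and with the higher floor the difference was 0.044. The step from RNA276 to wildtype was 2.46 technical SDs, and that from RNA275 to RNA276 was 1.80, so RNA275 and RNA276 are not ordered.

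The iron regulatory proteins differed in their patterns. Ireb2, which encodes the protein that is degraded when iron is plentiful, read 170 in wildtype, 213 in truncated Egr3, 200 in RNA275 and 73.8 in RNA276 by its 1 probe set (1433527_at). RNA276 stood well below the other 3, which lay close together. The nearest of these, wildtype, was 2.30-fold above RNA276, a gap of 5.99 technical SDs, while the steps among the other 3 were at most 1.34 technical SDs. The RNA276 reading lies just above the floor of 67.6, and the technical SD comes from brighter probe sets, so the size of this gap is uncertain. Of genes above the floor in any RNA, 0.941% (105 of 11154) were at least 2-fold lower in RNA276 than in each other RNA. Ireb2 was 1 of them by its probe set; Tfrc, at 1.70-fold, was not by its brightest, though 2 of its type A readings and 2 of its type B readings were. Wildtype minus truncated Egr3 was -0.33 in log2 for Ireb2, inside 2 technical SD.

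Aco1 encodes the protein that serves as cytosolic aconitase while it holds an iron-sulphur cluster and binds mRNA without it. Its brightest probe set (1456728_x_at), whose x marks possible cross-hybridisation, read 459 in wildtype, 404 in truncated Egr3, 448 in RNA275 and 413 in RNA276. The next (1423644_at) read 93.0, 118, 141 and 97.1 in that order of RNAs, and the type B probe set was below the floor in all 4. The first spans 1.14-fold over the 4 RNAs, the smallest span of the 7 brightest probe sets, and the second 1.51-fold. The log2 differences of wildtype minus truncated Egr3 were 0.19 and -0.34, opposite in sign and inside 2 technical SD, so no direction can be given for Aco1.

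Read together by their brightest probe sets (on type A, leaving out array controls), 1 of the 7 genes was at least 2-fold apart between the labelled RNAs, against 1.66% of all measured genes (171 of 10307); Slc40a1 is that gene and was chosen for it. In the direction of higher signal in wildtype none was, against 1.13%. Of the 7, 5 were above 0 and 2 below 0, where 49.9% of all measured genes were above 0. The median log2 difference of the 7 was 0.17 against 0.00 over all measured genes. The myotube markers lay the same way, 8 of 9 above 0 with a median of 0.22 and a summed signal of 23393 in wildtype against 19979 in truncated Egr3; their part in the values of the 7 genes was not tested. Slc40a1 and Hmox1 lay beyond 2 technical SD, in opposite directions. Over the 4 RNAs, 3 of the 7 (Slc40a1, Hmox1 and Ireb2) spanned at least 2-fold, where 14.8% of genes above the floor in any RNA did. The highest RNA differed from gene to gene: truncated Egr3 for Slc40a1 and Ireb2, wildtype for Tfrc and Aco1, RNA275 for Slc11a2 and Hmox1, and RNA276 for Fth1. By these probe sets the step from the highest to the next RNA exceeded 2 technical SD for Slc40a1 only, of the 7. Tfrc depended on the probe set: it spanned 1.94-fold by its brightest but 6.44-fold by the next (1422966_a_at). The step from its highest to the next RNA ran from 0.15 to 4.65 technical SDs over its 9 readings.

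**Figure D3:**
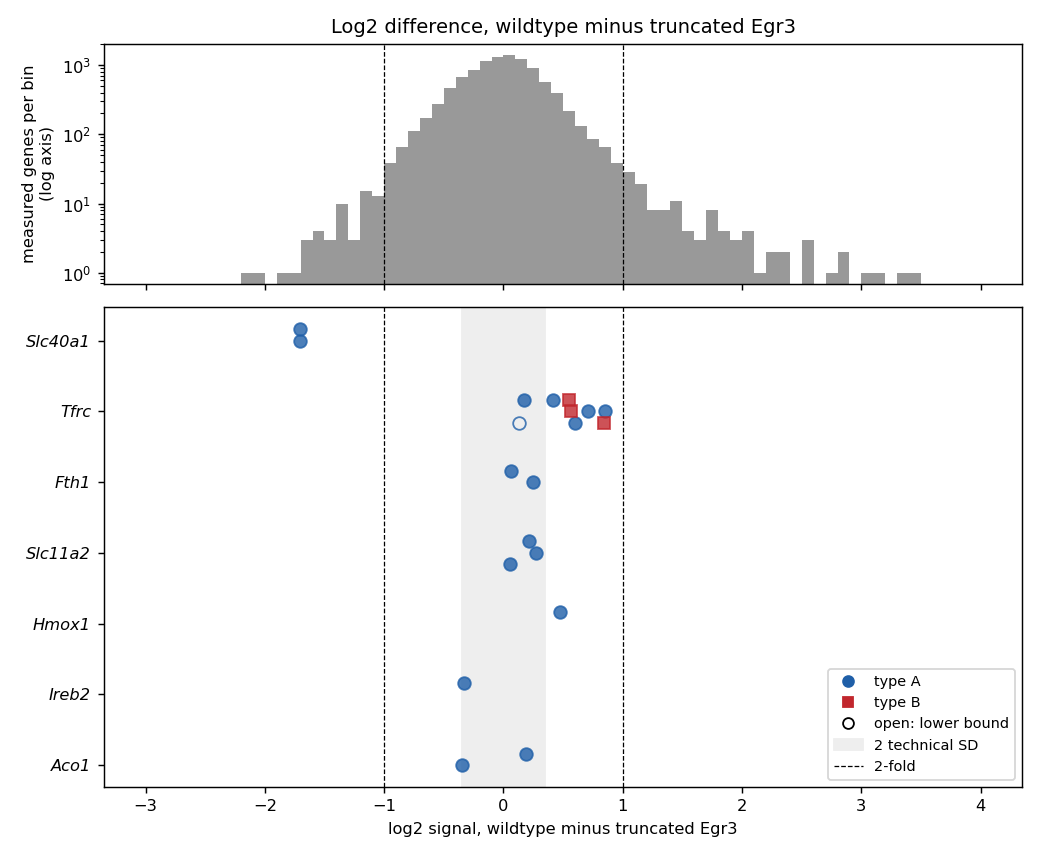
Upper panel, number of measured genes (log axis) by log2 difference of wildtype minus truncated Egr3; lower panel, the same difference for each measured reading of the 7 genes, offset vertically where they would overlap, with the grey band at 2 technical SD (0.348) and dashed lines at 2-fold. Both Slc40a1 points lie at -1.70, all 9 Tfrc points are above 0, and the Aco1 points have opposite signs.

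Of 86 further genes of iron and haem metabolism in 8 lists, 77 were named on the arrays and 61 were measured in the labelled RNAs. None was at least 2-fold apart by its brightest probe set, taken from type A where the gene is there, against 1.66% of all measured genes. Of the 61, 25 were above 0 and 36 below 0, where 49.9% of all measured genes were above 0. The median log2 difference of the 61 was -0.07. The metal-response list, of metallothioneins and their regulators, had the lowest median at -0.78 over 3 measured genes. Mt1 and Mt2, which bind zinc and copper, both had a log2 difference of -0.78 (691 against 1190 and 587 against 1010). Mtf1, the factor that drives them, was at 0.14 by a dim probe set on type A (76.3 against 69.2) and at -0.29 by a brighter one on type B (376 against 459). With the lower floor all 4 genes of the list were measured and the median became -0.32.

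Among regulators, Nfe2l2 encodes NRF2, an activator of Hmox1 and of ferritin genes, and had the largest difference of all 61, at -0.85 (281 in wildtype against 507 in truncated Egr3, with RNA275 at 492 and RNA276 at 504). It was therefore low in wildtype alone. The part of Nfe2l2 in the Hmox1 values was not tested. The 12 measured genes of the NRF2 and BACH1 list had a median of 0.05, 8 above 0 and 4 below, where 49.9% of all measured genes were above 0. Mafk, a partner of both factors, was at 0.36. Hif1a, the oxygen-regulated subunit of hypoxia-inducible factor, was at -0.61 (680 against 1041), with 586 in RNA275 and 484 in RNA276. Its 2 other measured probe sets gave -0.49 and -0.41. Fbxl5, the iron-sensing ligase subunit that marks Ireb2 protein for degradation, read 908 in wildtype, 1105 in truncated Egr3, 1423 in RNA275 and 1541 in RNA276, with RNA275 and RNA276 within 1 technical SD of each other. The 4 measured genes of that list had a median of -0.15.

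The lists for uptake, storage and export lay near 0. Uptake and transport genes had a median of -0.22 over 9, with Steap1, of the STEAP metalloreductase family, at -0.59 and Slc25a28, a mitochondrial iron importer, at 0.56. The other Steap1 probe set gave 0.03, and without probe sets marked for cross-hybridisation the list median was 0.03. In the storage list Pcbp1, a chaperone that delivers iron to ferritin, was at -0.69 (794 against 1277); the other 2 measured, Pcbp2 and Ncoa4, were at -0.08 and -0.06. The 7 measured genes of the export and hepcidin list had a median of 0.03. In it Hfe, which binds the transferrin receptor, was at -0.37, and Bmp6, an inducer of hepcidin, was at 0.18 or more, with truncated Egr3 at the floor. Bmp6 read 76.8 in wildtype, 144 in RNA275 and about 32 in the other RNAs (32.3 and 32.1). Hamp, the hepcidin gene, was below the floor in both labelled RNAs.

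Genes that consume iron differed little. Iron-sulphur cluster assembly genes had a median of -0.12, with 11 of 14 below 0, where 49.9% of all measured genes were above 0. The size of this median is below 1 technical SD (0.174). Fdx1, a ferredoxin, was at -0.57 and Ciapin1, of the cytosolic assembly route, at -0.41. The other measured Ciapin1 probe sets, on type B, gave 0.08 and 0.23. Haem synthesis and breakdown genes had a median of 0.00 over 9, with the pathway enzymes Urod and Ppox at -0.36 and -0.34. Brighter probe sets of Urod and Ppox on type B gave -0.13 and -0.38. Of Hmox2, the constitutive haem oxygenase, the log2 difference was 0.05.

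**Figure D4:**
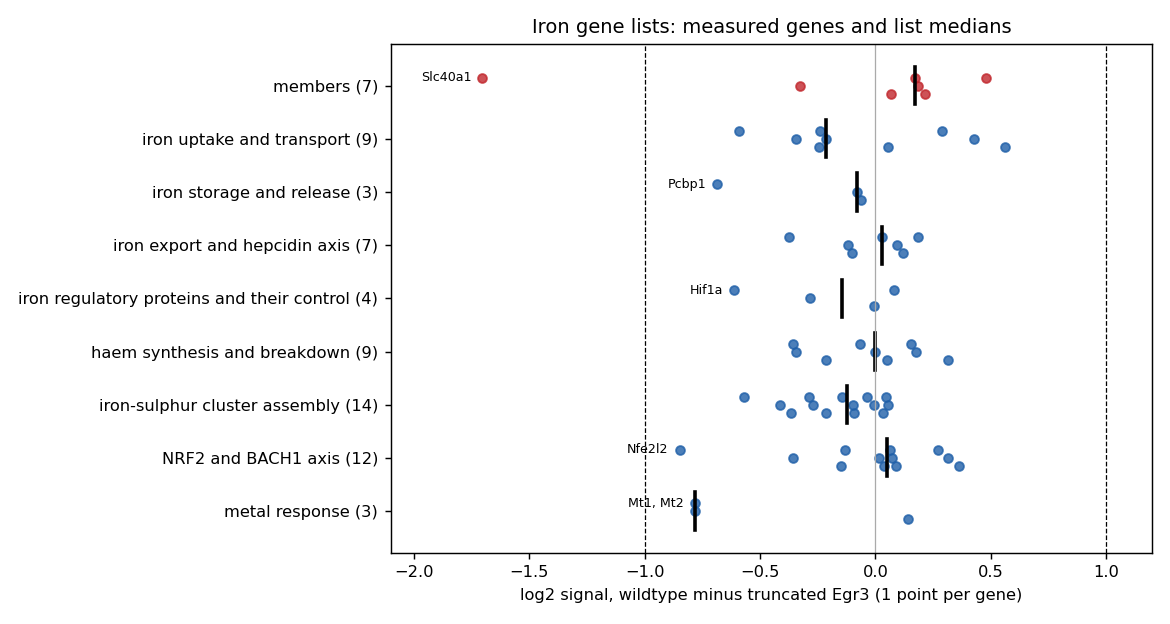
Log2 difference of wildtype minus truncated Egr3 (horizontal axis) for each measured gene of the 7 described and of the 8 further lists, 1 point per gene by its brightest probe set, vertical offsets only to separate points; black bars are list medians, dashed lines 2-fold, and numbers in brackets the genes measured. The probe set is taken from type A where the gene is there. Slc40a1 is the only point beyond 2-fold, and Nfe2l2, Mt1 and Mt2 follow at -0.85, -0.78 and -0.78.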

How the data were processed

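Total RNA of 4 myotube preparations was measured on 2 array types. The values deposited by the authors are linear intensities, 1 per probe set; which software made and normalized them is not given in the sources used here. After trimming 2% at both ends, all 8 arrays had a mean of 150.0, and that scale was kept. Names came from GEO's platform annotation, matched by gene number to RefSeq's GRCm38.p6 gene table (20351 of 20380 singly named probe sets on type A, 14486 of 14661 on type B); control probe sets entered no count over all genes. Signals were floored at the 50th (type A) and 60th (type B) percentile of the labelled arrays and turned to log2. The brightest probe set, on type A if present, stood for a gene, which counted as measured if either labelled RNA was above the floor. Where the dimmer RNA is at the floor the difference is a lower bound.

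No test is possible with 1 RNA per label, and genes at least 2-fold apart were counted. The counting was tried on simulated data with large differences planted in bright genes and technical error alone. That trial covers neither differences between cultures nor the error of dim probe sets. Genes and lists were chosen with earlier results of these data known. Named are all probe sets of the 7 genes and, per list, genes at 2-fold or the 2 largest differences. Myog, Adgre1, Cd68, Lyz2, Cd163, Col1a1, Col1a2, Col3a1, Mtf1, Ncoa4, Hamp and Hmox2 were added to show low, opposite or near-0 values. Alternatives were quantile normalization, equal medians, loess (span 0.3), lower, higher and no floor, 1.5-fold and 3-fold, the median over probe sets, and leaving out cross-hybridising probe sets. The array number limits precision. Tables were made with pandas 2.3.3 and numpy 2.4.6 under Python 3.11.15, loess with statsmodels 0.14.6 and figures with matplotlib 3.10.9.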

Additional observations from a re-analysis of the deposited data

Results flagged for a closer look

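Of 135 probe sets of the 7 genes and the further iron lists above the floor in any RNA, 3 read at least 2-fold higher in an unassigned RNA than in both labelled ones, all of them in RNA275. That is 2.22%, against 1.15% of all 19960 named probe sets above the floor in any RNA. None did in RNA276, against 1.61%. Epas1, the second oxygen-regulated factor subunit, read 468 on type B, 2.48-fold above the higher labelled RNA. Slc30a1, a zinc exporter, read 430 on type B, 2.16-fold above it. Gclm, a subunit of the enzyme that starts glutathione synthesis, read 150 on type A, 2.12-fold above it. Other probe sets of these genes were closer or dimmer: Gclm read 162 on type B against 124 in wildtype, and on type A Epas1 read 75.7 and Slc30a1 71.3, just above the floor.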

How the results depend on the processing

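The log2 difference of Slc40a1 lay between -1.77 and -1.68 over 8 alternatives and was at 2-fold in each. Genes at least 2-fold higher in wildtype and in truncated Egr3 numbered 116 and 55. They were 93 and 87 with equal medians, which took the share higher in wildtype from 67.8% to 51.7%. They were 185 and 84 with the lower floor, 76 and 39 with the higher floor, 1206 and 603 with no floor, 473 and 484 at 1.5-fold, and 38 and 8 at 3-fold. Hmox1 was at 0.044 with the higher floor. Tfrc was at 0.41 and Aco1 at -0.079 by the median over probe sets, which leaves out the array controls. Without cross-hybridising probe sets Fth1 was at 0.25 and Aco1 at -0.34. Apart from counts that follow from the floor or threshold itself, the cause was not tested. No paired analysis was possible because each label has 1 RNA, and its arrays of types A and B are the same RNA read mostly by different probe sets. For the same reason no replicate could be left out.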

Other observations

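Over the 4 RNAs, 9 of 66 further iron genes above the floor in any RNA (13.6%) spanned at least 2-fold by their brightest probe set, where 14.8% of all genes did. Lrp1, an endocytic receptor that takes up haem bound to hemopexin, read 421 in wildtype, 536 in truncated Egr3, 269 in RNA275 and 179 in RNA276. Slc39a14, a zinc and iron importer, read 185 and 137 in the labelled RNAs against 80.4 and 81.9 in RNA275 and RNA276. Cpox, an enzyme of haem synthesis, was highest in RNA276 at 222 and lowest in RNA275 at 96.8. Mt1 was lowest in RNA276, at 373, and Hfe highest there, at 149, with RNA275 at 74.3. Mafg was lowest in RNA275, at 134, and at 246 or more in the others.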
